A study of Mus musculus with 12 samples.

Results

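The Krüppel-like factors (KLFs) are zinc finger transcription factors that bind CACCC boxes and GC-rich sequences in promoters. The 10 genes described here, *Klf2*, *Klf3*, *Klf4*, *Klf5*, *Klf6*, *Klf7*, *Klf9*, *Klf10*, *Klf13* and *Klf15*, were chosen by symbol from the 22947 genes of the table. RNA of epididymal white adipose tissue (eWAT) was sequenced from 12 male C57BL/6J mice, with 3 mice in each of 4 groups. From 5 weeks of age the mice ate a normal diet (ND), a high-fat diet (HFD), or the HFD to which either an ethanol extract of chrysanthemum leaf (CLE, 1.5% by weight) or the flavonoid luteolin (LU, 0.003% by weight) had been added. The diets lasted 16 weeks, and the mice were 21 weeks old and had fasted for 12 h at sampling. The whole tissue was extracted, so each level is summed over adipocytes, vessels and immune cells. In such tissue, fewer cells of a type and less RNA per cell cannot be told apart.

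In background terms, the KLFs differ in the cofactors they recruit. *Klf3* encodes a repressor that binds CtBP, *Klf2*, *Klf4*, *Klf5*, *Klf6* and *Klf7* encode mostly activators, and *Klf9*, *Klf10* and *Klf13* encode proteins that recruit the Sin3A corepressor. During adipocyte differentiation, KLF4, KLF5, KLF6, KLF9, KLF13 and KLF15 are known as promoting factors, whereas KLF2, KLF3 and KLF7 oppose it. KLF2 and KLF4 are also known as flow-induced factors of endothelium, and *Klf9* and *Klf15* are induced by glucocorticoids.

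In HFD mice, *Klf2*, *Klf9* and *Klf4* were at 0.512, 0.533 and 0.575 times their ND levels, and no gene of the family was called higher. Levels of *Klf2* and *Klf4* were 1.59 and 1.76 times as high in the CLE group as in the HFD group. With LU both genes were also called higher, at 1.51 times the HFD level, the edge of the fold limit. *Klf3*, *Klf7*, *Klf10* and *Klf13* passed the test in no comparison.

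Values are FPKM (fragments scaled to transcript length and to library size), summed over the transcripts of a gene. Genes were fitted with limma on log2(FPKM + 1) where 3 or more libraries reached 1 FPKM, which left 12775 genes. A call needed both an adjusted p (Benjamini-Hochberg) below 0.05 and a change of more than 1.5-fold. Fold changes are given on that log2 scale, which understates the change of low genes. *Klf5* reached 1 FPKM in no library and was not tested, and the other 9 genes reached it in all 12. FPKM carry no read depth, and the precision that depth gives each value is unknown. Libraries of 1 group correlated at r = 0.978 to 0.991 over genes. The letter R stands in the labels of 4 libraries (LU mouse 2, CLE mouse 4, and mice 3 and 4 of ND) with a number in their column headers that reads as a date, and no HFD library has it. The column used for ND mouse 4 was assigned by inference.

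The promoters of the 3 genes that HFD lowered are shown because these genes moved together. RefSeq (GRCm38.p6) gave a promoter for 8 of the 10 genes, without *Klf5* and *Klf10*. Each run holds the 250 bases before the RefSeq transcription start, 5′ to 3′ on the strand of the gene. GENCODE M21 starts *Klf2* earlier, so the last 29 bases of its run, which hold its CACCC match, lie inside the GENCODE gene, and the runs of *Klf4* and *Klf9* lie outside theirs. Capitals mark the KLF box CACCC, the GC box GGGCGG, the E-box with the letters CACGTG, the CCAAT box and the MEF2 consensus on either strand, and neighbouring matches can overlap. *Klf2* lies on the plus strand at chr8:72318812-72319061, *Klf4* on the minus strand at chr4:55532476-55532725, and *Klf9* on the plus strand at chr19:23140976-23141225.
Klf2: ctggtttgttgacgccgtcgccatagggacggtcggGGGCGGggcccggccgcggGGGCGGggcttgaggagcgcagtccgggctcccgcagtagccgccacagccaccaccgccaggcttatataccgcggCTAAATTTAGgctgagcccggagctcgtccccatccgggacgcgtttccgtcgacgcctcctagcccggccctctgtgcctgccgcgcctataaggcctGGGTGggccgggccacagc
Klf4: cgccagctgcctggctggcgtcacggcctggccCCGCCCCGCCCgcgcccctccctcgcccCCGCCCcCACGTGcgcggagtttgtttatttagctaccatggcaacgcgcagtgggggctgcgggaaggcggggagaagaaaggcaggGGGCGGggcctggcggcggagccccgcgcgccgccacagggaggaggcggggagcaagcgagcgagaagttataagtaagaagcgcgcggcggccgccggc
Klf9: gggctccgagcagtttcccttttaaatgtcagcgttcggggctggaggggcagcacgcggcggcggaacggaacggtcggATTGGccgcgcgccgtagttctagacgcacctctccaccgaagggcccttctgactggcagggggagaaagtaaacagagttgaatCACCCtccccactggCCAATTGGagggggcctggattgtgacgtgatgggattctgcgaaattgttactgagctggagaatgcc

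None of the 5 motifs was in all 3 windows. *Klf2* held 2 GGGCGG matches, 1 CACCC and 1 MEF2 match. *Klf4* held 4 GGGCGG matches and 1 CACGTG, and *Klf9* held 3 CCAAT matches and 1 CACCC. Over the 8 KLF windows, GGGCGG was found in 7 and CACCC in 6, against 32.7% and 52.0% of all 32851 windows of this length. CCAAT was in 4 of 8 windows against 33.8% of all, CACGTG in 3 against 6.02%, and the MEF2 consensus in 1 against 2.92%. Of the windows not printed, all 250 bases of *Klf7*, 133 of *Klf3* and 7 of *Klf6* lie inside the GENCODE gene. The *Klf15* window held 2 of the CACGTG matches, and *Klf6* held 1. The KLF windows were rich in G and C, from 59.2% in *Klf7* to 78.4% in *Klf3*, where the median of all windows was 52.4%. A GC-rich window holds such letters more often than an average one, so these matches are a description of the sequences only.

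The first question was how a high-fat diet changed the family. Of the 9 genes tested, 3 were called lower in HFD than in ND and 0 higher, where 10.8% of all genes tested were called lower and 14.9% higher (25.6% in all). The median log2 fold change of the 9 genes was -0.05, and that of all genes was -0.02. The groups did not overlap for 4 of the 9 genes, against 59.5% of all genes tested. In either direction 3 of the 9 genes were called, which for so few genes is near the 25.6% of all genes. The genes were chosen with earlier results of these data known, so these shares are a description only. With the adjusted p alone, 5 of the 9 genes passed, against 50.5% of all genes tested.

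*Klf2*, the endothelial flow-responsive factor and an inhibitor of *Pparg* in preadipocytes, read 44.3, 25.0 and 31.7 FPKM in ND mice 2, 3 and 4. In HFD mice 12, 15 and 18 it read 16.8, 16.5 and 15.7 FPKM. Every HFD mouse was below every ND mouse, and the HFD mice were closely grouped. The means were 33.7 ± 9.79 FPKM in ND and 16.3 ± 0.605 FPKM in HFD (SD, n = 3 each). The log2 fold change was -0.96 (SE 0.18, limma adjusted p = 0.000949). The gene lies on the plus strand at chr8:72319033-72321656 (GENCODE M21, GRCm38). Its annotated transcript held 89.0% of the FPKM, and it was 23.0 to 40.2 FPKM in ND and 13.9 to 15.1 FPKM in HFD.

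*Klf9*, a glucocorticoid- and thyroid hormone-responsive repressor that takes part in late adipogenesis, read 61.3, 43.5 and 37.1 FPKM in ND. In HFD it read 24.6, 24.3 and 23.6 FPKM, again with no overlap. The means were 47.3 ± 12.5 FPKM and 24.2 ± 0.514 FPKM (SD, n = 3 each). This is a log2 fold change of -0.91 (SE 0.18, limma adjusted p = 0.00134). *Klf9* lies at chr19:23141226-23168134 on the plus strand, with the microRNA gene *Mir1192* inside it on the same strand. Its annotated transcript ranged from 20.3 to 35.2 FPKM in ND and from 13.5 to 14.1 FPKM in HFD. An assembled form that shares a splice junction with it ranged from 11.6 to 17.6 FPKM in ND and from 5.67 to 6.18 FPKM in HFD. The third abundant form, an assembled match of the annotated transcript, overlapped between the groups, at 4.70 to 8.45 FPKM in ND and 3.93 to 4.89 FPKM in HFD.

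*Klf4*, an early activator of *Cebpb* in adipogenesis and a regulator of macrophage polarization, read 78.3, 43.1 and 49.7 FPKM in ND. In HFD it read 35.1, 29.2 and 30.0 FPKM, and the groups did not overlap. The means were 57.02 ± 18.7 FPKM and 31.4 ± 3.19 FPKM (SD, n = 3 each). HFD was thus below ND by a log2 fold change of -0.80 (SE 0.19, limma adjusted p = 0.00519). Without ND mouse 2 it was -0.55, under the fold limit, with an adjusted p of 0.0115. *Klf4* lies on the minus strand at chr4:55527143-55532466. All 3 of its abundant transcripts were lower in every HFD mouse than in every ND mouse, and its main one was 19.8 to 38.4 FPKM in ND and 12.4 to 17.0 FPKM in HFD.

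ND mouse 2 was the ND library with the highest *Klf2*, *Klf4*, *Klf9* and *Klf15*. Without it, *Klf2* and *Klf9* kept log2 fold changes of -0.75 and -0.71 (limma adjusted p = 0.0022 and 0.00387). ND mouse 2 is also the only ND library without the letter R. With the 4 libraries that carry the letter left out, the differences were -1.39 for *Klf2*, -1.31 for *Klf9* and -1.29 for *Klf4* (limma adjusted p = 0.00194, 0.00342 and 0.00247), and the lone ND library was then assumed to vary as the others do. Among the libraries with the letter no such value can be had, since none is an HFD library.

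*Klf15*, which encodes an activator of the glucose transporter gene *Slc2a4* and of amino acid catabolism, was not called. It read 25.5, 22.7 and 13.1 FPKM in ND and 12.6, 15.5 and 12.2 FPKM in HFD. ND mouse 4 overlapped the HFD mice, and the other ND mice were above them all. HFD against ND gave a log2 fold change of -0.53 (SE 0.19, limma adjusted p = 0.0386), under the fold limit. The sum hides a split between transcripts, since assembled forms that share a splice junction with *Klf15* held 60.0% of its FPKM. In ND mouse 4 these forms held 2.65 FPKM, and in ND mice 2 and 3 they held 14.1 and 13.2 FPKM. The form with the highest mean among them was at 0.0054 FPKM in ND mouse 4 and 0.0112 in CLE mouse 2. In the other libraries it was at 2.34 to 7.54 FPKM. How well reads were divided among these overlapping forms was not tested, so values of single forms are uncertain. The annotated transcripts alone read 11.4, 9.43 and 10.5 FPKM in ND and 4.27, 3.33 and 6.62 FPKM in HFD, without overlap. On them the log2 fold change was -1.03 (limma adjusted p = 0.0158), and without ND mouse 4 the summed gene gave -0.80 (limma adjusted p = 0.000407), past both limits. The summed gene was also called with the letter R as a covariate (-0.67, limma adjusted p = 0.0297), with those libraries left out (-0.88, limma adjusted p = 0.00456), after quantile normalization (-0.60, limma adjusted p = 0.0232) and without HFD mouse 15 (-0.63, limma adjusted p = 0.0359). Without ND mouse 2 it was at -0.35 (limma adjusted p = 0.152). Counting the adjusted p alone, it was called lower in 8 of 23 alternatives. *Klf15* lies on the plus strand at chr6:90462576-90475238, and 2 antisense transcripts of the table that carry its name were not added to it.

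**Figure D1:**
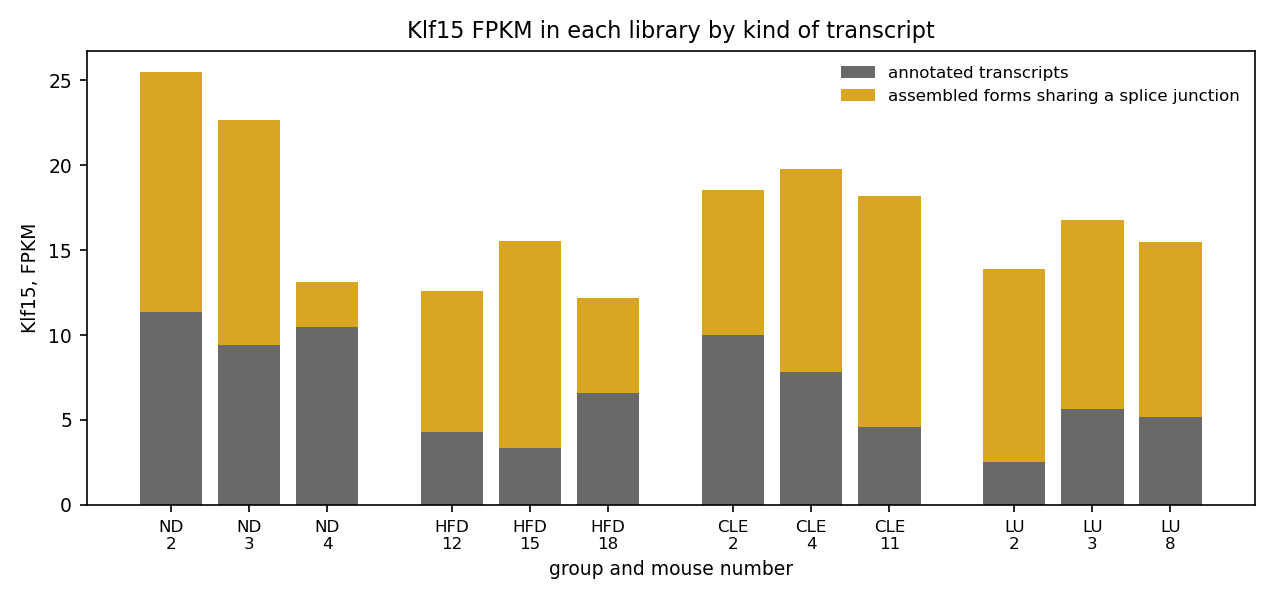
*Klf15* level in FPKM (y axis) in each library (x axis, group and mouse number), with annotated transcripts in dark grey and assembled forms that share a splice junction with them in yellow. ND mouse 4 had 2.65 FPKM in assembled forms, whereas its annotated transcripts at 10.5 FPKM lay beside the other ND mice.

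*Klf6*, an activator known to repress *Dlk1* in preadipocytes, had the highest mean level of the family, 57.5 FPKM over all libraries. It read 50.2, 38.8 and 49.4 FPKM in ND and 67.9, 57.7 and 62.9 FPKM in HFD, so every HFD mouse was above every ND mouse. HFD against ND gave 0.44 on the log2 scale (SE 0.13, limma adjusted p = 0.0168), under the fold limit. Its annotated transcript at chr13:5861482-5870394 held 99.9% of the FPKM.

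The remaining genes had overlapping ND and HFD groups. *Klf3*, the CtBP-binding repressor, was 21.9 to 33.96 FPKM over the 12 libraries, with a log2 fold change of -0.05 (95% interval -0.39 to 0.30). *Klf10*, a gene induced by TGF-β, was 18.8 to 32.5 FPKM, with a log2 fold change of 0.26 (-0.09 to 0.60). *Klf13*, which encodes an activator of *Pparg* in adipogenesis, was 14.99 to 18.8 FPKM, the narrowest range of the 9 genes by fold (0.11, -0.09 to 0.31). *Klf7*, an inhibitor of adipogenesis, was 4.62 to 9.35 FPKM (0.13, -0.32 to 0.58). Of these intervals only that of *Klf10* reaches past the fold limit, by its upper bound. *Klf3*, *Klf7* and *Klf13* overlap genes on the opposite strand in GENCODE, and whether the libraries kept strand is not stated, so reads from where a pair overlaps may count for either gene. *Klf5*, an early adipogenic factor, was 0.02 to 0.242 FPKM in the 12 libraries.

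**Figure D2:**
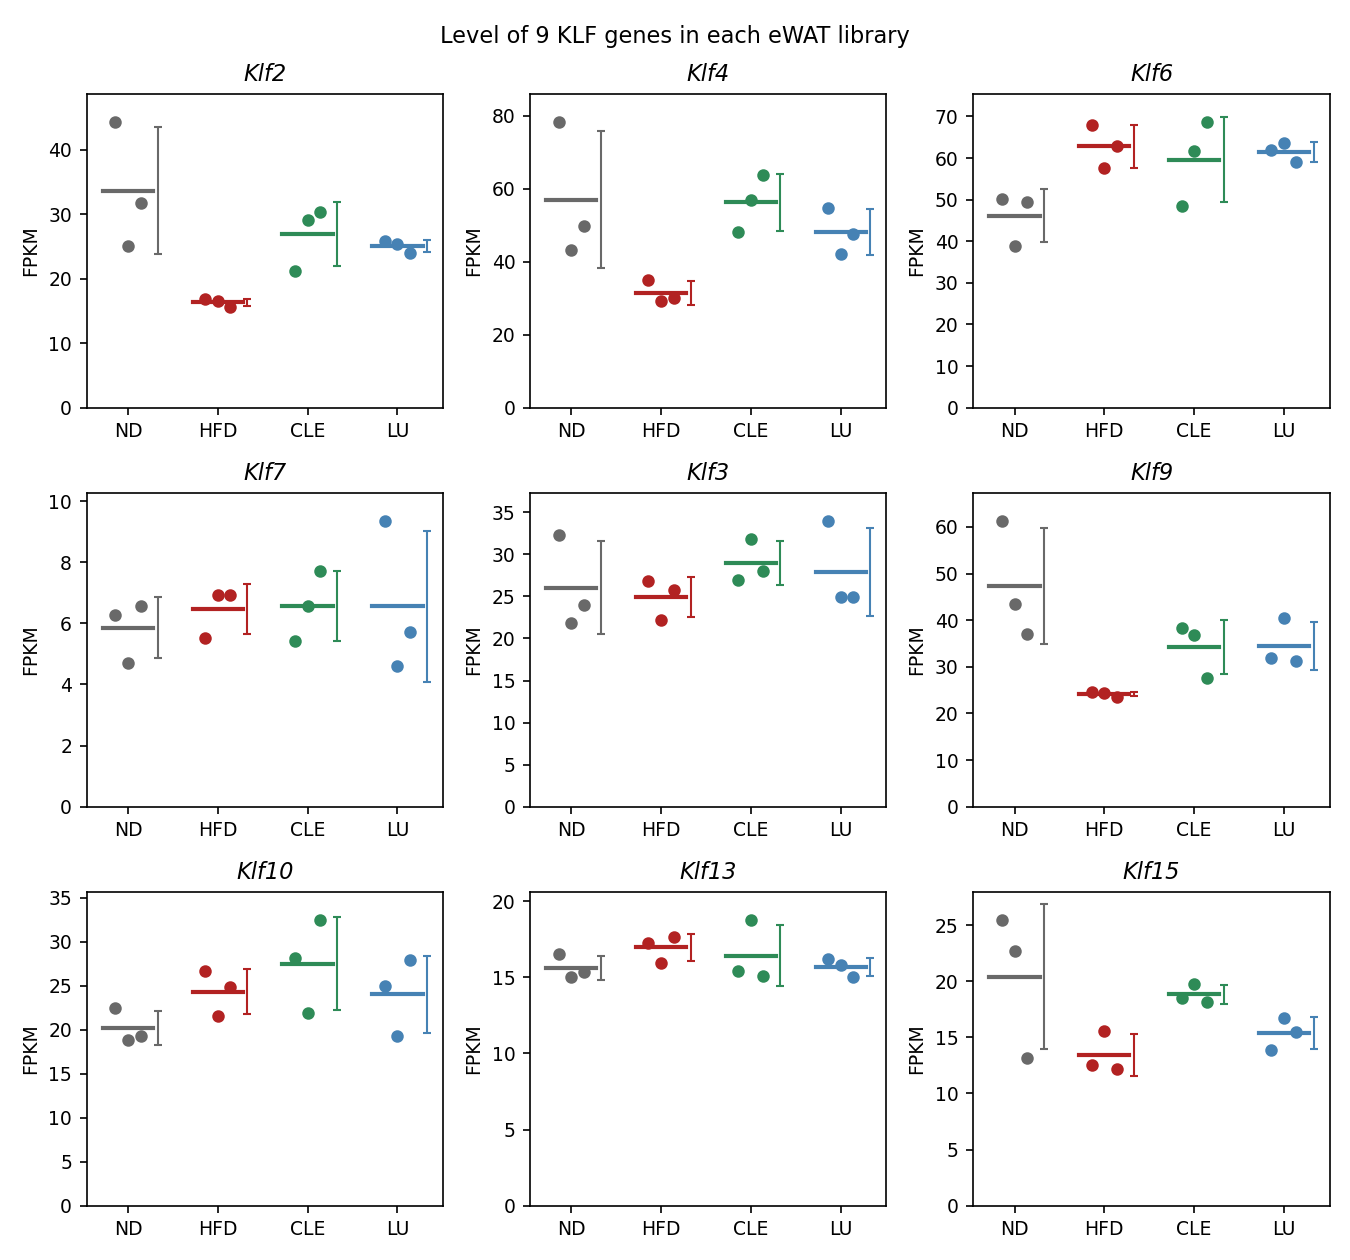
FPKM (y axis, from 0) of 9 KLF genes in each library, by group (x axis). Points are mice, horizontal lines are group means and the bars beside them are the SD (n = 3). *Klf2*, *Klf4* and *Klf9* are lower in all HFD mice than in all mice of the other 3 groups.

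Whether CLE in the HFD moved the family was asked next. Of the 9 genes, 2 were called higher with CLE than with HFD alone and 0 lower, where 6.33% of all genes tested were called higher and 10.1% lower (16.5% in all). The median log2 difference of the 9 genes was 0.21, against 0.01 over all genes. *Klf4* read 48.0, 56.98 and 63.7 FPKM in CLE mice 2, 4 and 11, with a mean of 56.3 ± 7.88 FPKM (SD, n = 3). No CLE mouse was as low as any HFD mouse, and the log2 fold change was 0.82 (SE 0.19, limma adjusted p = 0.00749). *Klf2* read 21.2, 29.1 and 30.4 FPKM, with a mean of 26.9 ± 4.97 FPKM. The groups again did not overlap, and the log2 fold change was 0.67 (SE 0.18, limma adjusted p = 0.0134). CLE mouse 4 carried the letter R. Without that mouse the adjusted p of *Klf2* was 0.0521, and without CLE mouse 11 its log2 fold change of 0.58 was just under the limit. With the main transcript of *Klf4* in place of the sum, its log2 fold change was 0.60 at an adjusted p of 0.0814.

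For *Klf9* the CLE mice read 38.4, 36.8 and 27.5 FPKM, all above the HFD mice. The difference of 0.47 on the log2 scale (SE 0.18, limma adjusted p = 0.0608) did not pass the test. Without CLE mouse 11, the lowest of them, it was 0.62 with an adjusted p of 0.024, past both limits. For *Klf15* the CLE mice read 18.5, 19.8 and 18.2 FPKM, also above all HFD mice, with a log2 difference of 0.47 (limma adjusted p = 0.083). On its annotated transcripts alone they read 9.99, 7.81 and 4.57 FPKM, and CLE mouse 11 was below HFD mouse 18 at 6.62 FPKM. That log2 difference was 0.54 (limma adjusted p = 0.203). *Klf6* read 48.5, 61.7 and 68.7 FPKM, overlapping both the ND and the HFD mice, and its log2 fold change was -0.09 (95% interval -0.38 to 0.21). For *Klf3* the groups did not overlap either, at a log2 difference of 0.21 (limma adjusted p = 0.33). In all, 5 of 9 genes did not overlap between CLE and HFD, where 50.6% of all genes tested did not.

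With LU in the HFD, 2 of the 9 genes were called higher and 0 lower, where 4.81% of all genes tested were called higher and 7.64% lower (12.4% in all). The median log2 difference of the 9 genes was 0.15, against 0.03 over all genes. The LU and CLE groups were compared with the same 3 HFD libraries. *Klf4* read 54.6, 42.0 and 47.6 FPKM in LU mice 2, 3 and 8, with a mean of 48.1 ± 6.31 FPKM (SD, n = 3). *Klf2* read 25.8, 25.5 and 24.0 FPKM, with a mean of 25.1 ± 0.979 FPKM. All these values were above those of every HFD mouse. The differences on the log2 scale were 0.60 for *Klf4* (SE 0.19, limma adjusted p = 0.0407) and 0.59 for *Klf2* (SE 0.18, limma adjusted p = 0.0305), or 1.51-fold for each. Both calls were thus at the limit of 1.5, and both were lost when any 1 HFD or LU library was left out (adjusted p up to 0.127 for *Klf4* and 0.0882 for *Klf2*). *Klf9* read 31.8, 40.4 and 31.2 FPKM, all above the HFD mice, with a log2 difference of 0.48 (limma adjusted p = 0.0631). Thus 3 of 9 genes did not overlap between LU and HFD, where 47.6% of all genes tested did not.

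*Klf15* with LU read 13.9, 16.8 and 15.5 FPKM, within the range of HFD and ND together, and its log2 fold change against HFD was 0.19 (95% interval -0.23 to 0.61). Its main annotated transcript, which alone read 9.43 to 11.4 FPKM in ND, was 2.52 to 5.66 FPKM in LU. On the annotated transcripts, LU was lower than ND, with a log2 difference of -1.12 (limma adjusted p = 0.0389), whereas the summed gene gave -0.34 (limma adjusted p = 0.281).

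**Figure D3:**
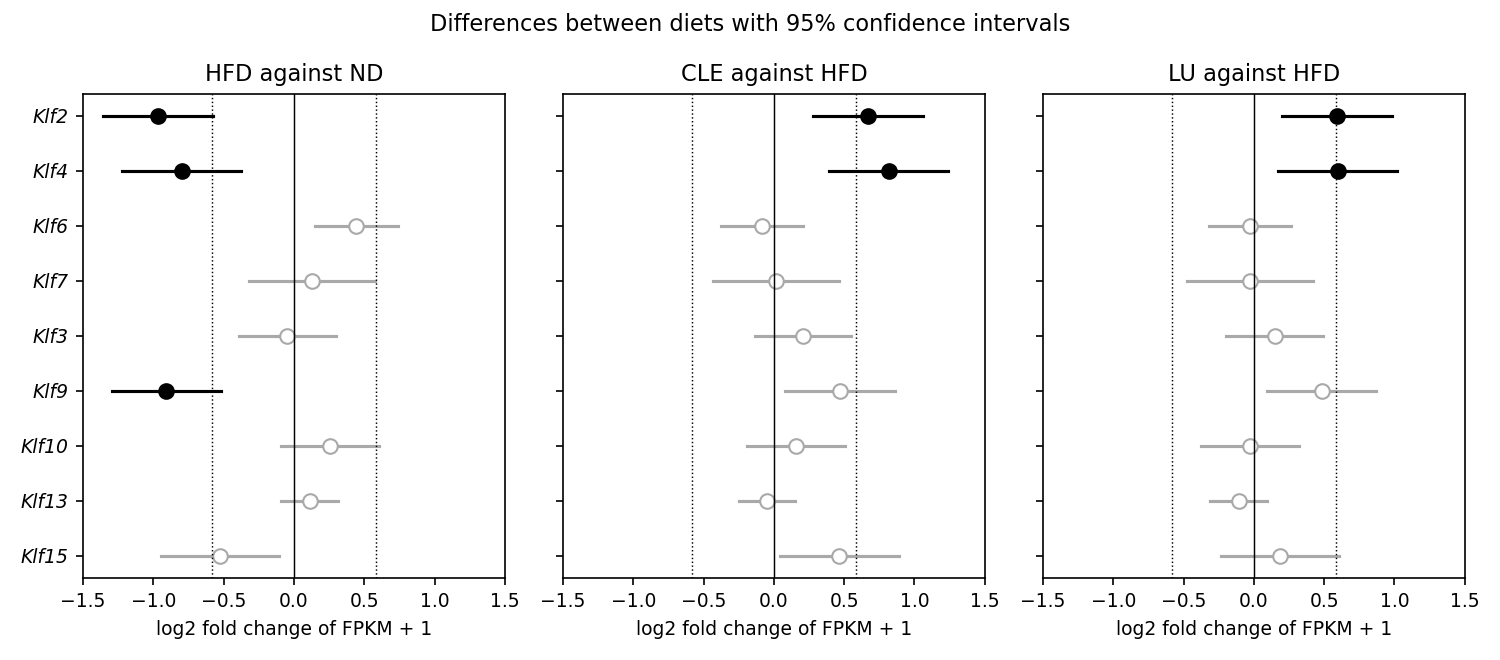
Log2 fold change of FPKM + 1 (x axis) for 9 KLF genes (y axis) in 3 comparisons. Lines are 95% confidence intervals, filled black points passed both limits, open grey points did not, and dotted lines mark a fold of 1.5. *Klf2* and *Klf4* lie to the left for HFD against ND and to the right for CLE and LU against HFD, where the LU points sit on the dotted line.

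CLE and LU were also compared with each other. None of the 9 genes was called between them (0 by limma, and 0 at an unadjusted p under 0.05), where 0.00783% of all genes tested were called, a single gene, and 5.26% had an unadjusted p under 0.05. On the log2 scale, CLE minus LU was 0.22 for *Klf4* (95% interval -0.20 to 0.64) and 0.08 for *Klf2* (-0.31 to 0.47). It was -0.01 for *Klf9* (-0.40 to 0.37). A difference of up to these bounds in either direction cannot be told from none with 3 mice a group. *Klf15* was higher in all CLE mice than in all LU mice, by 0.28 on the log2 scale (limma adjusted p = 0.9), where 9.03% of all genes tested did not overlap. On its annotated transcripts alone the groups overlapped, with CLE mouse 11 at 4.57 FPKM and LU mouse 3 at 5.66 FPKM.

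Against ND, 0 of 9 genes were called for CLE (2.91% of all genes tested) and 0 for LU (6.59%). At an unadjusted p under 0.05 there were 3 with CLE, *Klf6*, *Klf9* and *Klf10*, against 23.3% of all genes tested, and 2 with LU, *Klf6* and *Klf9*, against 27.7%. The mean of *Klf4* with CLE was 56.3 FPKM against 57.02 FPKM in ND, a log2 fold change of 0.02 (95% interval -0.41 to 0.44). *Klf2* with CLE was at -0.29 (-0.68 to 0.10) and with LU at -0.37 (-0.77 to 0.02). *Klf9* lay below ND on the mean, by a log2 fold change of -0.44 with CLE (-0.83 to -0.05) and -0.43 with LU (-0.81 to -0.04), at adjusted p of 0.164 and 0.143. *Klf6* with LU was above ND in all mice, by 0.42 on the log2 scale (limma adjusted p = 0.0642), and 30.1% of all genes tested did not overlap between LU and ND. An exact permutation test of 3 mice against 3 cannot give a p below 0.1, which is what *Klf2*, *Klf4* and *Klf9* reached for HFD against ND, CLE against HFD and LU against HFD.

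Markers of some cell types also differed between the groups, in either direction. Of all genes tested, 10.8% were called lower and 14.9% higher in HFD, 6.33% higher with CLE and 4.81% higher with LU. The 6 adipocyte markers, *Adipoq* among them, were all called lower in HFD, and their summed level was 27592 to 28616 FPKM in ND, 15131 to 17107 in HFD, 23672 to 25980 in CLE and 22231 to 27519 in LU. Of 7 endothelial markers 3 were called lower in HFD (*Emcn*, *Egfl7* and *Cldn5*), 5 higher with CLE and 6 higher with LU. Their sum was 415 to 646 FPKM in ND, 271 to 433 in HFD, 473 to 698 in CLE and 524 to 614 in LU. The 7 macrophage markers went the other way, with sums of 303 to 474 FPKM in ND, 2366 to 2757 in HFD, 553 to 871 in CLE and 890 to 1049 in LU. Of 4 mesothelial markers 3 were lower in HFD, with sums of 8.46 to 47.97 FPKM in ND and 2.27 to 6.56 in HFD. No progenitor marker was called in these 3 comparisons, and 1 of 2 tested T cell markers was higher in HFD. Of 4 smooth muscle and pericyte markers 1 was called higher in HFD, but their median log2 fold change was -0.45. Their sum was 179 to 316 FPKM in ND, 179 to 205 in HFD, 264 to 300 in CLE and 287 to 335 in LU. Of 4 epididymis markers, *Lcn5* was listed at 0 in all libraries, and *Lcn8* was at most 0.323 FPKM. Only *Crisp1* was abundant enough to test, and it was not called in these 3 comparisons. The sum of the 4 was 0.388 to 5.46 FPKM in ND, 0.0487 to 0.364 in HFD, 0 to 0.332 in CLE and 0.0508 to 3.31 in LU. It was highest in ND mouse 4. The part of these markers in the KLF differences was not tested.

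Set against the markers, *Klf2*, *Klf4*, *Klf9* and *Klf15* did not separate ND from HFD. Per 1000 FPKM of endothelial markers, *Klf2* was 49.1 to 72.6 FPKM in ND and 36.2 to 62.0 in HFD, and *Klf4* was 76.9 to 128 in ND and 69.3 to 129 in HFD. The CLE and LU values of *Klf2* were 43.6 to 48.9 and 39.1 to 48.6 on this scale, below every ND value and within the HFD range. Those of *Klf4* were 91.3 to 102 and 77.6 to 91.7, within the ranges of both ND and HFD. Per 1000 FPKM of adipocyte markers, *Klf9* was 1.30 to 2.22 FPKM in ND and 1.42 to 1.61 in HFD, and *Klf15* was 0.459 to 0.923 in ND and 0.803 to 0.908 in HFD. ND and HFD overlapped for each of these ratios. The summed *Klf15* overlapped before the division as well. The HFD endothelial sums ranged from 271 to 433 FPKM, and that spread enters the ratios. How many of all genes would overlap after the same division was not tested. No conclusion on the part of the markers is drawn from the overlap.

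**Figure D4:**
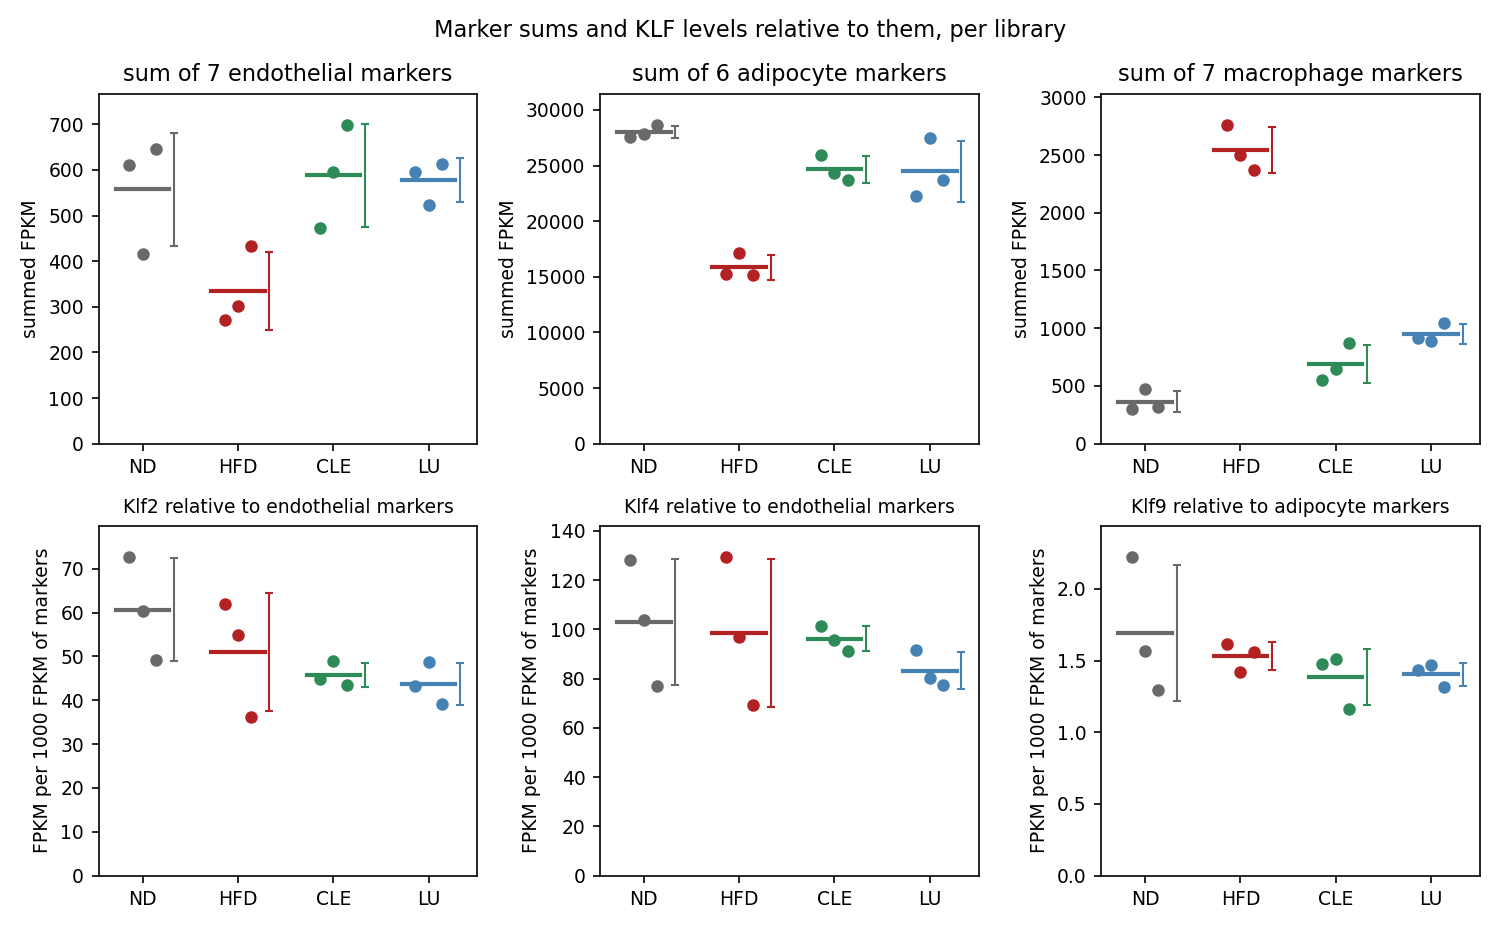
Summed FPKM of endothelial, adipocyte and macrophage markers (top, y axis) and *Klf2*, *Klf4* and *Klf9* per 1000 FPKM of marker sum (bottom, y axis) in each library by group (x axis). Points are mice, lines means and bars the SD (n = 3). The marker sums separate HFD from the other groups except for 1 ND library among the endothelial sums, and the relative KLF levels of ND and HFD overlap.

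Among the other KLF and SP genes, 8 of 16 were abundant enough to test. *Klf8*, a CtBP-binding repressor, was the only one of them called (25.6% of all genes tested were called for HFD against ND). It read 1.25, 1.20 and 1.14 FPKM in ND and 2.42, 5.77 and 2.52 FPKM in HFD, which is 0.98 higher on the log2 scale (SE 0.22, limma adjusted p = 0.0035). With LU it was lower than in HFD (-0.66, limma adjusted p = 0.0461), and with CLE it was not called. HFD mouse 15 was far above the other HFD mice, and without it the LU difference was -0.34 (limma adjusted p = 0.104). That call was lost in 9 of the 12 fits that each left out 1 library, and the call for HFD against ND in 0.

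Of 10 cofactors and modifiers of KLF proteins, all were tested and 1 was called. For HFD against ND, CLE against HFD and LU against HFD, 25.6%, 16.5% and 12.4% of all genes tested were called. *Wwp1*, a ubiquitin ligase that targets KLF2 and KLF5, read 21.0, 21.7 and 18.5 FPKM in ND and 53.8, 46.0 and 45.7 FPKM in HFD. The log2 fold change was 1.21 (SE 0.09), with -0.82 for CLE and -0.78 for LU against HFD. *Wwp1* was thus called in the direction opposite to *Klf2* in all 3 comparisons. The 7 macrophage markers were all called in that same direction. The ligase acts on protein, KLF2 protein was not measured, and a link between the 2 genes was not tested. The *Wwp1* calls held without each library in turn, whereas those of *Klf2* were lost in 2 of 12 such fits for CLE and 6 of 12 for LU against HFD. The corepressor partner genes *Ctbp1*, *Ctbp2*, *Sin3a* and *Sin3b* were not called.

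Genes known to lie downstream of KLFs were counted next. Of 6 such adipogenic genes 4 were tested and 0 were called for HFD against ND, where 25.6% of all genes tested were called. *Pparg* was at -0.44 and *Cebpa* at -0.48 (limma adjusted p = 0.0163 and 0.00813), under the fold limit. *Cebpb*, known as a target of KLF4, was at -0.07 (limma adjusted p = 0.807). Of the 5 tested genes downstream of KLF2, 3 were lower and 1 higher in HFD, against 10.8% and 14.9% of all genes tested. The nitric oxide synthase gene *Nos3* was at -0.81, the thrombomodulin gene *Thbd* at -0.85 and the endothelin gene *Edn1* at -0.69, and the adhesion molecule gene *Vcam1* at 0.70. As background, KLF2 is known to induce *Nos3* and *Thbd* and to repress *Edn1* and *Vcam1*. *Edn1* was lower in HFD, as *Nos3* and *Thbd* were. KLF2 protein was not measured, and a link between *Klf2* and these genes was not tested. Nor was the part of the endothelial markers, whose mean level also differed between ND and HFD. With CLE, *Nos3* and *Edn1* were higher than in HFD (0.60 each), and with LU *Edn1* and the sphingosine receptor gene *S1pr1* were (0.80 and 0.67). Of these calls only that of *Thbd* for HFD against ND held without each library in turn. Without ND mouse 2, *Nos3* was at -0.58, under the fold limit. Without ND mouse 4 or HFD mouse 12, *Edn1* was at -0.48 and -0.60 (limma adjusted p = 0.071 and 0.0664), and without ND mouse 3 *Vcam1* was at 0.58. The CLE and LU calls were each lost in 3 to 10 of 12 such fits.

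Of 4 amino acid genes downstream of KLF15, *Bcat2* and *Gpt2* were lower in HFD, where 10.8% of all genes tested were called lower. Their log2 fold changes were -0.74 and -1.09 (limma adjusted p = 0.00223 and 0.00136). *Gpt2*, a mitochondrial alanine transaminase, was higher with CLE (0.73), a call lost in 4 of 12 fits that left out a library, and was not called with LU. *Prodh* was at -0.32 and *Gpt* at 0.04 for HFD against ND, neither called. Among all genes tested, 25.6%, 16.5% and 12.4% were called for HFD against ND, CLE against HFD and LU against HFD. Of 9 glucocorticoid-responsive genes 1 was called in each of these comparisons. This was *Zbtb16*, at -0.85 for HFD against ND, 1.31 for CLE and 0.99 for LU against HFD, and held without each library in turn. *Fkbp5* and *Tsc22d3* were not called.

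*Klf10* and *Klf15* are known as clock-controlled genes, and *Klf2*, *Klf4*, *Klf6* and *Klf10* as early response genes of many cell types. Of 12 clock genes 3 were lower in HFD (*Nr1d1*, *Per2* and *Per3*), 4 were higher with CLE and 1 with LU. Of all genes tested, 10.8% were called lower in HFD, 6.33% higher with CLE and 4.81% higher with LU. *Nr1d1*, a repressor of the clock's positive arm, was at -0.64 for HFD against ND, 1.44 for CLE and 0.98 for LU against HFD. The first of these calls was lost in 4 of 12 fits that left out a library, those without ND mouse 2, ND mouse 3, HFD mouse 15 or HFD mouse 18, and was smallest at -0.45 (limma adjusted p = 0.156) without HFD mouse 15. *Per2* was at -0.59 for HFD against ND, a call lost in 3 of 12 such fits, down to -0.38 (limma adjusted p = 0.0439) without ND mouse 2 and also under the fold limit without ND mouse 3 or HFD mouse 18. *Per3* was at -0.88, held without each library. With CLE, the calls of *Nr1d2* (0.68) and *Per3* (0.60) were lost in 3 and 4 of 12 fits (for both without CLE mouse 2, CLE mouse 4 or HFD mouse 15, and for *Per3* also without HFD mouse 12), and those of *Nr1d1* and *Per2* in none. Of 12 immediate early genes 3 were higher and 1 lower in HFD, where 14.9% of all genes tested were higher and 10.8% lower. *Atf3* at 4.27, *Egr2* at 3.43 and *Fos* at 2.07 were higher, and *Ier3* at -1.03 was lower. With CLE 2 were higher and 2 lower than in HFD, against 6.33% and 10.1% of all genes tested. With LU 1 was higher and 3 lower, against 4.81% and 7.64%. *Ier3* was at 1.18 with CLE and 1.13 with LU. *Fos* was at -0.94 with LU, a call lost in 5 of 12 fits that left out a library. The time of day at which the tissue was taken is not in the labels. Its part in these values, and that of the fast before sampling, was not tested.

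The genes whose log2 levels over the 12 libraries were most like those of the lowered KLF genes were named by Pearson's r. For *Klf2* they were *Gprc5a* (0.98), *Id4* (0.97) and *Usp36* (0.97), for *Klf4* *Fgfr3* (0.98), *Gm21981* (0.97) and *Ppm1d* (0.95), and for *Klf9* *Asns* (0.98), *Suco* (0.97) and *Suclg2* (0.97). These r describe libraries that share group differences and carry no test.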

How the data were processed

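RNA of eWAT from 12 mice was measured. Per the submitters' processing notes, the reads were handled with CASAVA 1.8.2, Bowtie2 2.2.3, TopHat2 2.0.12 and Cufflinks 2.2.1, from libraries of a TruSeq kit. The genome build is not given in the sources used here. The authors deposited FPKM per transcript (152210 transcripts), which carry no depth. The table has 15 FPKM columns. Those of 3 libraries fit no sample here and were left aside, as were 4 columns of the authors' comparisons.

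The rows of each gene with an Ensembl transcript, plain or assembled with class code = or j, were summed in Python 3.11.15 (pandas 2.3.3, numpy 2.4.6) to 22947 genes, and 53 rows fell to the KLF genes. Positions are from GENCODE M21. Genes that reached 1 FPKM in 3 or more libraries were fitted with limma 3.58.1 (R 4.3.3) on log2(FPKM + 1), all 12 libraries with 1 coefficient per group, and p-values were adjusted over all 12775 genes. The count test of the authors could not be run on FPKM. Nothing in the labels tells how tissue of a mouse was divided, so p-values measure the spread between mice as sampled. All 10 genes were named. The genes and lists were chosen with earlier results of these data known. The procedure was tested on simulated data with known changes. For HFD against ND, 171 of 200 log2 changes of 1 and 199 of 200 of 2 were recovered, with 6 and 4 other genes called. Smaller changes, such as those called for the KLF genes, and the other comparisons were not simulated. Alternatives were a pseudocount of 0.1, no filter, other scalings, only the groups compared, an intensity trend, the letter R as covariate or left out, the adjusted p alone, other transcript choices, a replicate block and each library left out. Plots were drawn with matplotlib 3.10.9.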

Additional observations from a re-analysis of the deposited data

How the results depend on the processing

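Over 54 comparisons of single KLF genes, 1238 of 1278 values under alternatives kept the call, or its absence, of the values reported, 27 lost a call and 13 gained one, and no call changed direction. Most of these comparisons were not called, so the pooled count says little of the calls. For LU against HFD, the calls of *Klf2* and *Klf4* were lost in 11 and 12 of 23 alternatives. For CLE against HFD they were lost in 2 and 1 of 23. Values that were not called could change sign or cross 1 of the limits. The number of KLF genes called for HFD against ND was 5 with the adjusted p alone, adding *Klf6* and *Klf15*, and 4, adding *Klf15*, with quantile normalization, with the letter R as a covariate, with its libraries left out, without class j transcripts and with the transcript of highest mean. It was 2 to 4 with each library left out. For CLE against HFD it was 1 with the transcript of highest mean in place of the sum, where *Klf4* was lost, and 1 to 2 with each library left out. For LU against HFD it was 0 without a filter, with median ratio scaling, with the libraries of the letter R left out, without class j transcripts and with the transcript of highest mean, and 0 to 2 with each library left out. For LU against ND it was 1, *Klf15*, without class j transcripts and with the transcript of highest mean, and 0 to 1 with each library left out. For CLE against LU and CLE against ND it was 0 in every fit that left out a library.

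ND, CLE and LU share some mouse numbers, but these are different mice. With the mouse number as a replicate block, 0 KLF genes were called for CLE against ND and 0 for LU against ND, as without the block in the same libraries, which was a comparison chosen after seeing the data. Deviations of the 5 same-numbered pairs correlated at -0.10 to 0.19, so the numbers were not taken to pair the samples. No paired fit was made for comparisons with HFD, whose mouse numbers are not shared. The FPKM give no depth, so no limit of detection can be stated for *Klf5*.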
